A study of Homo sapiens with 12 samples.

Results

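The genes described here are 49 lysosomal genes, the hydrolytic enzymes, membrane proteins and proton pump subunits of the lysosome together with the transcription factors of the MiT/TFE family. They were taken by name from the 62232 rows of the expression table, each name matching 1 row. By role they are 22 acid hydrolases, 2 soluble proteins without enzyme activity, 7 membrane proteins, 15 subunits or accessory proteins of the proton pump and 3 MiT/TFE factors. Of the 49, 48 had at least 1 TPM, the unit of the table and a length-corrected share of the library total, in at least 3 libraries and were tested. LIPA, the acid lipase of the lysosome, was left out of the tests because it stood at 0.23 TPM or less in every library.

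RNA was sequenced from K562, a human cell line from chronic myeloid leukemia that carries the BCR::ABL1 fusion kinase, in 4 groups of 3 libraries. The cells received 0.5 µM imatinib, which blocks the ABL1 kinase, together with 25 µM MLN4924, which blocks the enzyme that activates the ubiquitin-like protein NEDD8, or imatinib alone, MLN4924 alone or neither drug (control), for 12 h. No source says whether the 3 libraries per group are separate cultures, and p-values therefore describe library-to-library spread, which may be technical. Read numbers cannot be had from TPM, which leaves the depth of each library unknown.

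The lysosome is the acidic compartment in which proteins, glycans, lipids and nucleic acids are broken down by hydrolases that work best at low pH. The acid is made by the V-ATPase, a rotary pump in which the cytosolic V1 part splits ATP and the membrane-embedded V0 part carries the protons. TFEB, TFE3 and MITF are related transcription factors that bind E-box sequences in the promoters of many lysosomal genes, and they are held in the cytoplasm when the kinase complex mTORC1 is active at the lysosome.

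All 10 markers of K562 cells, globin and erythroid genes among them, were present at 1 TPM or more. Their summed level was 16480 to 23336 TPM with imatinib + MLN4924, 42547 to 57834 with imatinib, 13997 to 16244 with MLN4924 and 15781 to 16340 in control. Of 10 macrophage and monocyte markers, which would bring lysosomal transcripts of another cell type, 1 had a mean of 1 TPM or more, and C1QA, MARCO and S100A8 were listed at 0 in all 12 libraries. Their summed level was 5.17 to 6.21 TPM with imatinib + MLN4924, 6.33 to 7.27 with imatinib, 5.87 to 7.43 with MLN4924 and 7.08 to 8.73 in control. Of 5 lymphoid markers 2 had a mean of 1 TPM or more with imatinib + MLN4924 and 1 in each other group. They summed to 1.25 to 4.0 TPM, and MS4A1 was listed at 0 throughout. The 8 fibroblast and epithelial markers summed to 367 to 714 TPM, most of it from 3 epithelial genes. Group means were 188.6 to 435.6 TPM for KRT8, 151.0 to 187.5 for KRT19 and 25.52 to 42.69 for EPCAM. Genes of the mitochondrial chromosome held 14.9 to 15.7% of the TPM with imatinib + MLN4924, 17.4 to 18.2% with imatinib, 12.7 to 13.8% with MLN4924 and 12.8 to 13.6% in control. Since TPM is a share of the library total, the tests were repeated after rescaling to a total without mitochondrial and globin genes. Mitochondrial and globin genes were themselves left out of the repeated tests. The median log2 fold change was then 0.16, in place of 0.02 over all 15478 tested genes, for imatinib against control. It was -0.10 in place of 0.00 for imatinib + MLN4924 against imatinib, and -0.12 in place of -0.01 for the interaction. Replicate 3 of imatinib stood nearer to the control libraries than replicates 1 and 2 in several members, such as CTSB, CTSC and PPT1, and counts without it and its counterpart with both drugs are given below where they differ.

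RefSeq promoter windows on GRCh38.p14, from 250 bases before to 50 bases after the gene's start, were at hand for 36 of the 49 members. The other 13 are HEXA, NAGLU, PSAP, ASAH1, ATP6V1A, ATP6V1H, SGSH, ATP6V1C1, CTSB, LAMP2, ATP6V0E1, ATP6V1B2 and MANBA. Both strands were searched for the E-box CACGTG, for its longer form TCACGTGA, which contains it and resembles the element known from lysosomal promoters, for the palindrome made by a G before and a C after that form, for the M-box TCATGTGA and for TGACNNNGC, the core of the antioxidant response element. The E-box was found in 11 of the 36 members (30.6%, against 8.77% of all 27305 genes with a window), TCACGTGA in 7 (19.4% against 1.18%), the palindrome in 3 (8.33% against 0.421%), the M-box in 4 (11.1% against 1.24%) and TGACNNNGC in 16 (44.4% against 16.1%). Stretches that end at the base before the start are shown for the 3 members with the longest E-box form, for LAMP1 with the most E-boxes and for ATP6V0B, the pump subunit that fell most with imatinib. TPP1 is shown as a hydrolase with 2 M-boxes, and CTSL, which rose most with MLN4924, with its TGACNNNGC on the reverse strand. Capitals mark the E-boxes in the first 5, the M-boxes in TPP1 and the antioxidant core in CTSL. The positions are chr17:80101481-80101580, plus strand, for GAA, chr19:7522524-7522623, plus strand, for MCOLN1, chr9:114587669-114587768, plus strand, for ATP6V1G1, chr13:113297039-113297238, plus strand, for LAMP1, chr1:43974860-43974959, plus strand, for ATP6V0B, chr11:6619423-6619522, minus strand, for TPP1 and chr9:87726019-87726118, plus strand, for CTSL.
GAA: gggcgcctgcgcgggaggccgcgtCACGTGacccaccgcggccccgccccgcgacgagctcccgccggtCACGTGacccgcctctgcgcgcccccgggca
MCOLN1: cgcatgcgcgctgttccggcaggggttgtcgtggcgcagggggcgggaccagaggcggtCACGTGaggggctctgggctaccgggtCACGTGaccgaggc
ATP6V1G1: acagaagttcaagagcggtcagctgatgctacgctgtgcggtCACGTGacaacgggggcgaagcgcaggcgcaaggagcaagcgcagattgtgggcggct
LAMP1: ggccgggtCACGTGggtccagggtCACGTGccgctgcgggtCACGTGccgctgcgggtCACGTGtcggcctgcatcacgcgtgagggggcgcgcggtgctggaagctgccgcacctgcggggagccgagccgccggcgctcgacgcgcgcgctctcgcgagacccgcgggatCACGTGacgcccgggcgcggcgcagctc
ATP6V0B: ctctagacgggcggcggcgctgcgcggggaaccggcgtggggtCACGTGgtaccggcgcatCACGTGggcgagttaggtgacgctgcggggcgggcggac
TPP1: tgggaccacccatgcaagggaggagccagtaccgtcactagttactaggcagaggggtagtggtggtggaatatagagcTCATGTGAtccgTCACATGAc
CTSL: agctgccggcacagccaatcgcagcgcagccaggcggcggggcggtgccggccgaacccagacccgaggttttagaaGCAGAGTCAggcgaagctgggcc
In GAA the E-boxes begin 76 and 31 bases before the start, and in MCOLN1 41 and 14 bases before it. A match says only that these letters are present, and binding was not measured here. GENCODE puts the outermost start of LAMP1 and MCOLN1 at the RefSeq start and that of the other 5 genes upstream of it, so these 5 stretches lie partly or wholly within the gene as GENCODE draws it.

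In control cells the levels of the members spanned a wide range. CD63, a tetraspanin of late endosomes and lysosomes, was the highest at 563 ± 21.4 TPM, followed by ATP6V1F, a V1 subunit, at 483 ± 21.0 and PSAP, the precursor of the saposins that help hydrolases reach their lipids, at 361 ± 11.4 TPM (SD, n = 3 each). The ranges of these 3 did not overlap with one another. Next came the protease CTSC at 231 ± 14.8 TPM, and its range overlapped with that of ATP6V0C, a V0 subunit, at 217 ± 9.59 (SD, n = 3 each). At the low end stood SGSH, a heparan sulfatase, at 6.92 ± 0.439, TFEB at 4.90 ± 0.390 and MITF at 4.28 ± 0.435 TPM (SD, n = 3 each). In 32 of the 48 pairs of neighbours in this order the ranges of the control libraries overlapped, and in 16 they did not. Together the members held 0.484% of the TPM with imatinib + MLN4924, 0.523% with imatinib, 0.532% with MLN4924 and 0.464% in control.

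With imatinib most hydrolases rose, while more genes of the proton pump fell than rose. With values rescaled without mitochondrial and globin genes, 4 pump genes rose and 2 fell, with a median still below that of all genes. Of 21 tested hydrolases 15 rose and 5 fell against control, and both soluble non-enzymes rose, while of 15 pump genes 1 rose and 8 fell. Of 7 membrane proteins LAMP2 alone passed, and of the MiT/TFE factors TFEB and TFE3 fell. In all, 19 of 48 members rose and 15 fell, against a background of 26.3% of all tested genes that rose and 27.5% that fell, by limma with Benjamini-Hochberg adjustment. The median log2 fold change was 0.55 for the hydrolases, -0.02 for the membrane proteins and -0.19 for the pump, beside 0.02 for all tested genes. On the rescaled values 25 members rose and 7 fell, where 35.2% of all genes rose and 20.4% fell. The median was then 0.71 for the hydrolases, 0.145 for the membrane proteins and -0.03 for the pump, beside 0.16 for all tested genes. Without replicate 3 of imatinib and of imatinib + MLN4924 the counts were again 19 and 15. In bulk RNA, fewer cells that express a gene and less of its RNA per cell cannot be told apart. The rise of the hydrolases came with the rise of the erythroid markers and of the mitochondrial share given above, whose part in it was not tested.

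**Figure D1:**
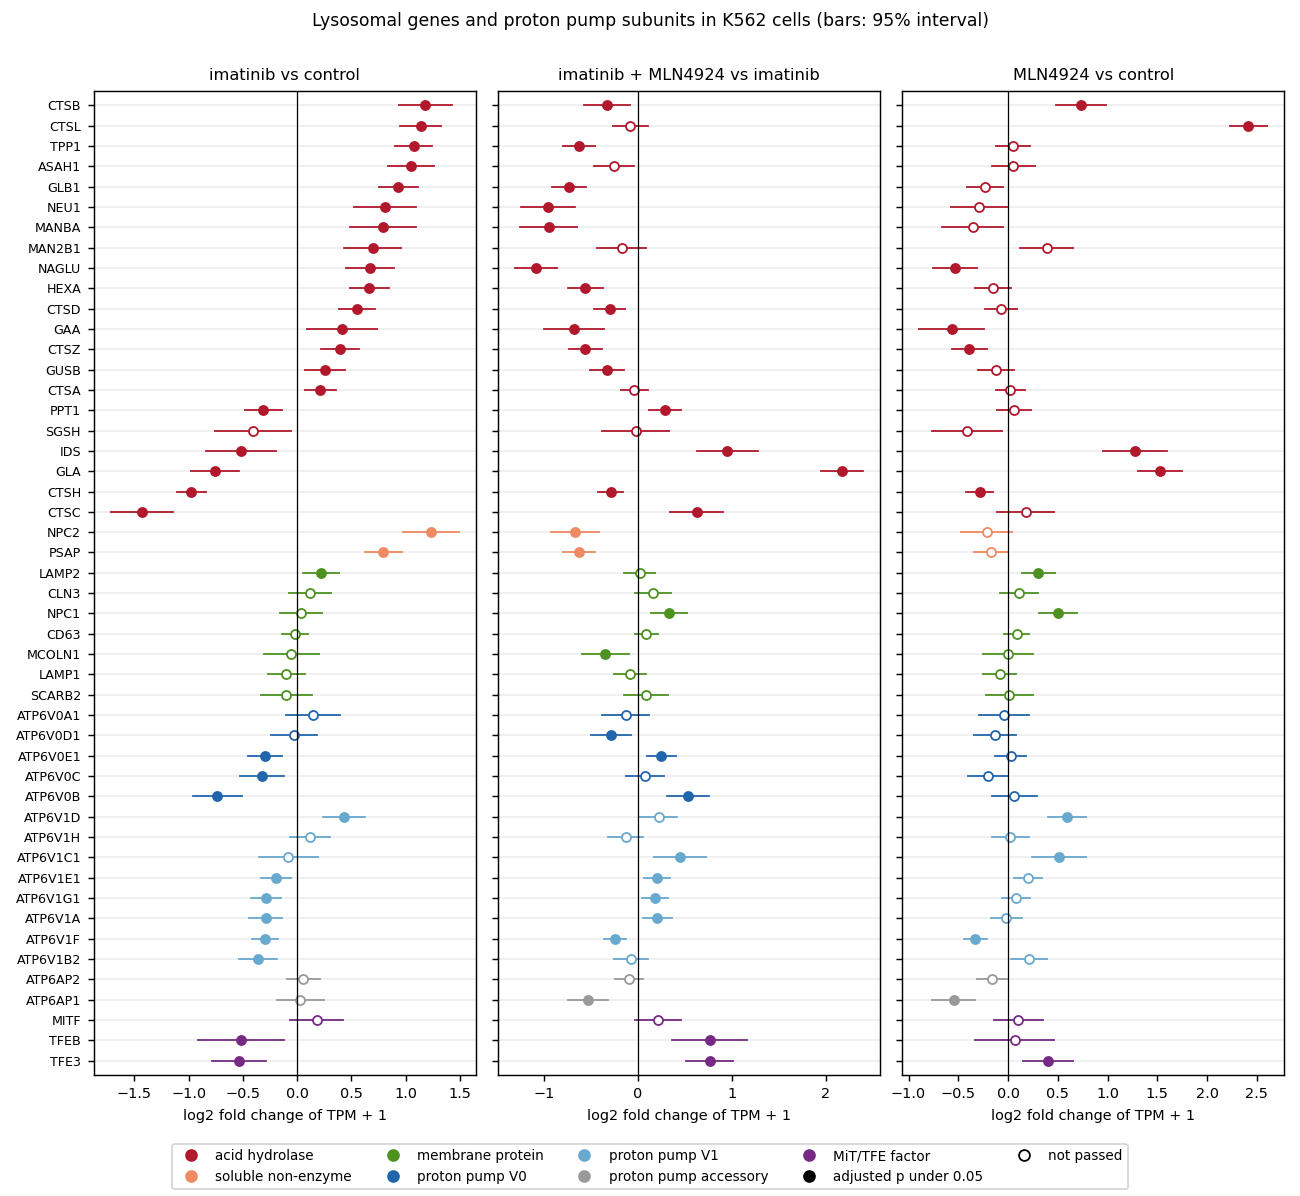
Log2 fold change of TPM + 1 (horizontal axis) of each tested member, with its 95% interval, for imatinib against control, imatinib + MLN4924 against imatinib and MLN4924 against control, 3 libraries per group. Filled points passed at an adjusted p under 0.05, and with imatinib 15 of 21 hydrolases lie above 0 and filled while 8 of 15 pump genes lie below 0 and filled, of which 2 remain lower on the rescaled values.

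CTSB (ENSG00000164733, chromosome 8 from 11842524 to 11869533), a cysteine protease, stood at 155, 143 and 151 TPM with imatinib + MLN4924, 210.1, 209.7 and 150.5 with imatinib, 146, 131 and 135 with MLN4924 and 88.0, 80.6 and 78.1 in control. Every treated library lay above the 3 control libraries, and imatinib replicate 3 lay below the other 2 imatinib libraries. Its log2 fold change with imatinib against control was 1.18 (SE 0.11, adjusted p = 1.18e-05), where SE is the standard error. CTSL (ENSG00000135047, chromosome 9 from 87724051 to 87731469), another cysteine protease, stood at 271, 259 and 299.6 TPM with imatinib + MLN4924, 309, 306 and 263 with imatinib, 636, 741 and 758 with MLN4924 and 134, 134 and 128 in control. The imatinib libraries lay at about the level of those with both drugs, above control and well below MLN4924 alone, and the log2 fold change with imatinib was 1.14 (SE 0.09, adjusted p = 3.67e-06). TPP1 (ENSG00000166340, chromosome 11 from 6612768 to 6619448), which cuts tripeptides from the ends of proteins, had 128, 114 and 103 TPM with imatinib + MLN4924, 178, 188 and 167 with imatinib, 85.3, 84.1 and 90.8 with MLN4924 and 83.9, 86.2 and 81.2 in control. Imatinib was the highest group and both drugs together came next, while MLN4924 and control overlapped. Its log2 fold change with imatinib was 1.08 (SE 0.08, adjusted p = 3.19e-06).

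The other hydrolases that rose with imatinib act on proteins, glycans and lipids. ASAH1, the acid ceramidase, averaged 192 ± 16.7 TPM with imatinib and 91.9 ± 5.20 TPM in control (SD, n = 3 each), which gave 1.05 (SE 0.10, adjusted p = 1.07e-05). GLB1, the beta-galactosidase, averaged 107 ± 9.52 TPM with imatinib and 55.3 ± 3.35 TPM in control (SD, n = 3 each), with a log2 fold change of 0.93 (adjusted p = 8.06e-06). The sialidase NEU1, which forms a complex with GLB1 and CTSA, had 0.81, and CTSA, the protective protein of that complex, 0.21. Among enzymes of glycan breakdown the log2 fold change was 0.79 for MANBA and 0.70 for MAN2B1, the beta- and alpha-mannosidases, 0.67 for NAGLU, which acts on heparan sulfate, and 0.67 for HEXA, a subunit of hexosaminidase. It was 0.55 for the aspartic protease CTSD, 0.40 for the carboxypeptidase CTSZ, 0.41 for GAA, which breaks down glycogen, and 0.25 for GUSB, the beta-glucuronidase. Of these rises, 3 were lost when some single library was left out. That of CTSA was lost without imatinib replicate 2 or control replicate 2 (adjusted p = 0.0523 to 0.064), that of GUSB without imatinib replicate 1 or control replicate 2 or 3 (adjusted p = 0.0831 to 0.0962) and that of GAA without imatinib replicate 1 or 2 or control replicate 1 or 3 (adjusted p = 0.0764 to 0.138).

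Of the hydrolases, 5 fell with imatinib. CTSC (ENSG00000109861, chromosome 11 from 88265069 to 88359684), the dipeptidyl peptidase that activates the serine proteases of granules, stood at 125, 128 and 143 TPM with imatinib + MLN4924, 73.7, 75.0 and 111 with imatinib, 254, 265 and 263 with MLN4924 and 217, 228 and 247 in control. The imatinib libraries were the lowest, with replicate 3 above the other 2, and its log2 fold change against control was -1.43 (SE 0.13, adjusted p = 9.14e-06). CTSH, an aminopeptidase, had 23.8, 23.4 and 25.9 TPM with imatinib + MLN4924, 30.9, 28.9 and 30.0 with imatinib, 47.8, 49.2 and 49.6 with MLN4924 and 58.2, 61.7 and 59.6 in control. The 4 groups did not overlap, with both drugs lowest and control highest, and the log2 fold change with imatinib was -0.98 (SE 0.06, adjusted p = 1.77e-06). GLA (ENSG00000102393, chromosome X from 101393273 to 101408012), the alpha-galactosidase A, stood at 176, 174 and 213 TPM with imatinib + MLN4924, 36.5, 38.1 and 48.2 with imatinib, 203, 205 and 197 with MLN4924 and 70.9, 67.3 and 69.7 in control. Imatinib alone was the lowest group and both groups with MLN4924 were far above control, and the log2 fold change with imatinib was -0.76 (SE 0.10, adjusted p = 0.000102). IDS, the iduronate sulfatase, had 11.6, 12.7 and 18.4 TPM with imatinib + MLN4924, 6.35, 6.90 and 6.97 with imatinib, 22.5, 30.0 and 25.5 with MLN4924 and 10.1, 10.3 and 9.79 in control. The imatinib libraries lay below control and every library with MLN4924 above it, with a log2 fold change equal to -0.52 (SE 0.15, adjusted p = 0.0118) for imatinib. PPT1, which removes palmitate from proteins, had 138, 133 and 165 TPM with imatinib, against 182, 183 and 174 in control, a log2 fold change of -0.31 (adjusted p = 0.00579) that was -0.15 (adjusted p = 0.0943) on the rescaled values. SGSH had -0.41 (95% interval -0.76 to -0.05) and did not pass after adjustment.

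Both soluble non-enzymes rose with imatinib. PSAP (ENSG00000197746, chromosome 10 from 71816298 to 71851251) stood at 434, 413 and 374 TPM with imatinib + MLN4924, 659.8, 673 and 556 with imatinib, 321, 319 and 321 with MLN4924 and 348, 364 and 370.2 in control. The imatinib libraries were the highest, and the log2 fold change was 0.80 (SE 0.08, adjusted p = 1.2e-05). NPC2 (ENSG00000119655, chromosome 14 from 74476192 to 74494177), which binds cholesterol in the lumen and hands it to NPC1, had 112, 107 and 91.8 TPM with imatinib + MLN4924, 165, 175 and 154 with imatinib, 54.0, 57.2 and 68.7 with MLN4924 and 60.3, 79.4 and 69.6 in control. Imatinib was again highest, both drugs together lay between imatinib and control, and the log2 fold change with imatinib was 1.23 (SE 0.12, adjusted p = 1.17e-05).

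**Figure D2:**
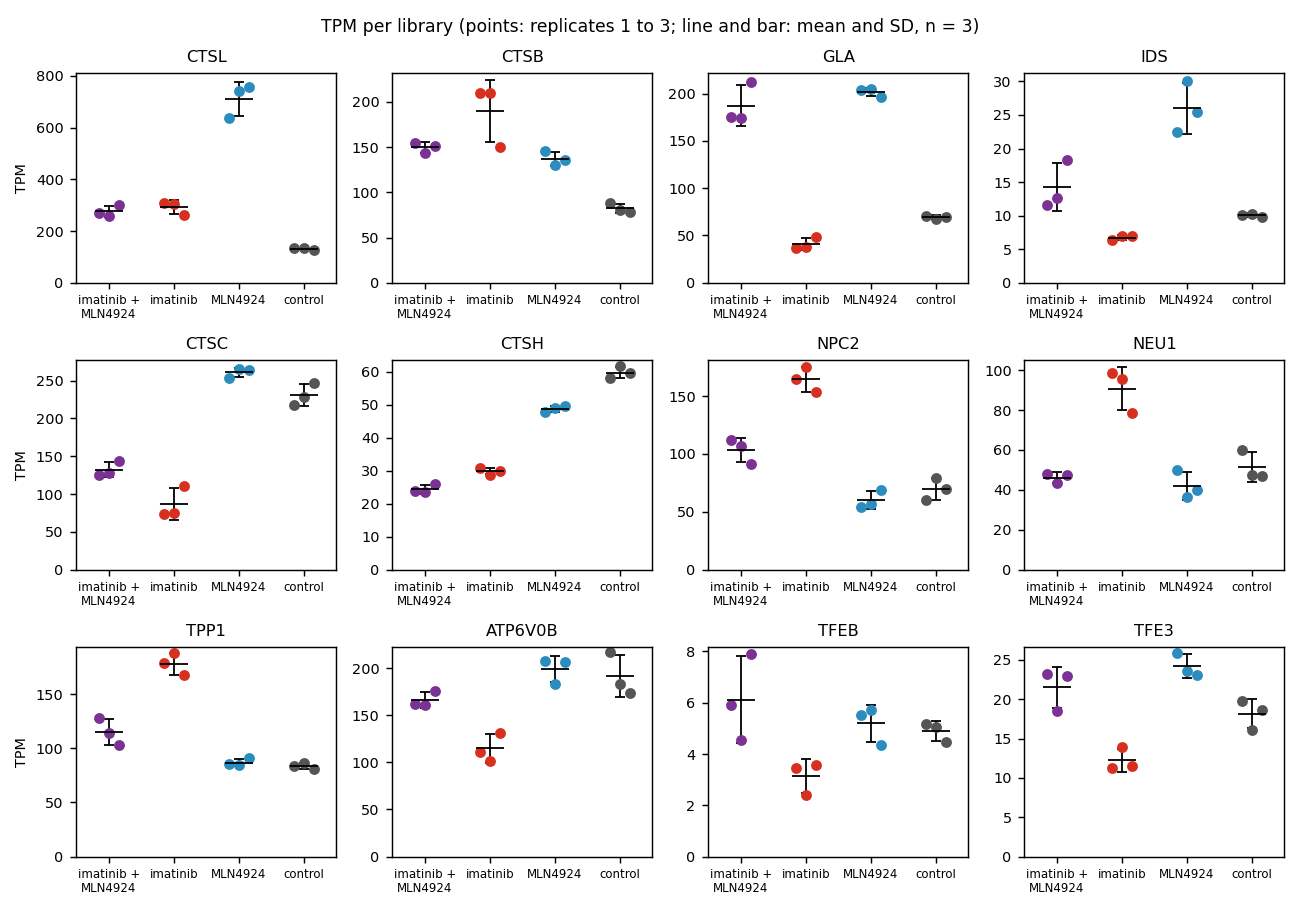
TPM in each of the 12 libraries (vertical axis of each panel, starting at 0) for members with large changes, with points for libraries and lines for the mean of 3 and its SD. CTSL reached 636 to 758 TPM with MLN4924 alone, and GLA stood at 36.5 to 48.2 TPM with imatinib and at 67.3 TPM or more in every other group.

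Of the membrane proteins LAMP2 alone passed with imatinib. LAMP2, a structural glycoprotein of the lysosomal membrane, had 35.5, 36.0 and 33.7 TPM with imatinib + MLN4924, 36.0, 33.3 and 34.5 with imatinib, 34.9, 39.1 and 36.4 with MLN4924 and 28.1, 28.2 and 32.7 in control. Every treated library lay above the 3 control libraries, and the log2 fold change with imatinib was 0.22 (SE 0.08, adjusted p = 0.0299), which did not pass without imatinib replicate 1 or control replicate 1 or 2 (adjusted p = 0.0981 to 0.105). The 6 others had log2 fold changes of -0.10 for SCARB2, the receptor that carries glucocerebrosidase, -0.10 for the glycoprotein LAMP1, -0.05 for the calcium channel MCOLN1, -0.02 for CD63, 0.04 for the cholesterol transporter NPC1 and 0.12 for CLN3, the protein lost in Batten disease. On the rescaled values CD63, with 0.14 (adjusted p = 0.0354), and CLN3, with 0.28 (adjusted p = 0.0146), passed as higher beside LAMP2. Of all genes 35.2% rose on these values, and their median was 0.16, above the value of CD63. The signs of SCARB2, LAMP1, MCOLN1 and CD63 turned positive there.

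Of the pump genes, 3 of 5 V0 subunits and 5 of 8 V1 subunits fell with imatinib. ATP6V0B (ENSG00000117410, chromosome 1 from 43974487 to 43978295), a proteolipid of the V0 ring, stood at 162, 161 and 175 TPM with imatinib + MLN4924, 111, 102 and 131 with imatinib, 207, 183 and 207 with MLN4924 and 217, 184 and 174 in control. The imatinib libraries were the lowest, and the log2 fold change against control was -0.73 (SE 0.10, adjusted p = 0.000132), or -0.57 (adjusted p = 0.000462) on the rescaled values. ATP6V0C, the main proteolipid of that ring, had 168, 183 and 168 TPM with imatinib, against 222, 206 and 223 in control, a log2 fold change of -0.33 (adjusted p = 0.0112). It was -0.16 (adjusted p = 0.166) on the rescaled values, past the threshold no longer. ATP6V1B2, a subunit of the V1 head, had 41.5, 41.9 and 45.5 TPM with imatinib + MLN4924, 44.2, 43.4 and 47.6 with imatinib, 74.7, 63.0 and 64.5 with MLN4924 and 62.4, 54.0 and 58.1 in control. Both groups with imatinib lay below both groups without it, and the log2 fold change with imatinib against control was -0.36 (SE 0.08, adjusted p = 0.0031), or -0.20 (adjusted p = 0.0517) rescaled. ATP6V1D (ENSG00000100554, chromosome 14 from 67294371 to 67360265), of the central stalk that turns in the V1 head, was the 1 pump gene that rose. It stood at 56.7, 62.5 and 72.4 TPM with imatinib + MLN4924, 55.5, 52.5 and 55.1 with imatinib, 58.7, 62.5 and 61.6 with MLN4924 and 43.6, 39.6 and 37.2 in control. All treated libraries lay above control, and the log2 fold change with imatinib was 0.43 (SE 0.09, adjusted p = 0.00167).

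The other pump genes that fell had small changes. They were the V0 subunit ATP6V0E1, the catalytic V1 subunit ATP6V1A, ATP6V1G1 and ATP6V1E1 of the peripheral stalks and ATP6V1F of the central stalk, with log2 fold changes of -0.29, -0.29, -0.29, -0.19 and -0.30 in that order. ATP6V1E1 did not pass without imatinib replicate 1 or 2 or control replicate 3 (adjusted p = 0.0537 to 0.0839). On the rescaled values the count of the pump became 4 higher (ATP6V0A1, ATP6V1H, ATP6V1D and ATP6AP2) and 2 lower (ATP6V0B and ATP6V1F). Of all genes 35.2% rose and 20.4% fell on these values, with a median of 0.16. The signs of ATP6V1C1 and ATP6V0D1, which did not pass, turned positive there. Summed TPM of the 15 pump genes was 1626 ± 91.5 TPM with imatinib + MLN4924, 1618 ± 25.6 with imatinib, 1801 ± 50.5 with MLN4924 and 1884 ± 66.1 in control (SD, n = 3 each). Every imatinib library lay below every control library in this sum, which was taken on the deposited TPM only, without rescaling, and was not tested.

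**Figure D3:**
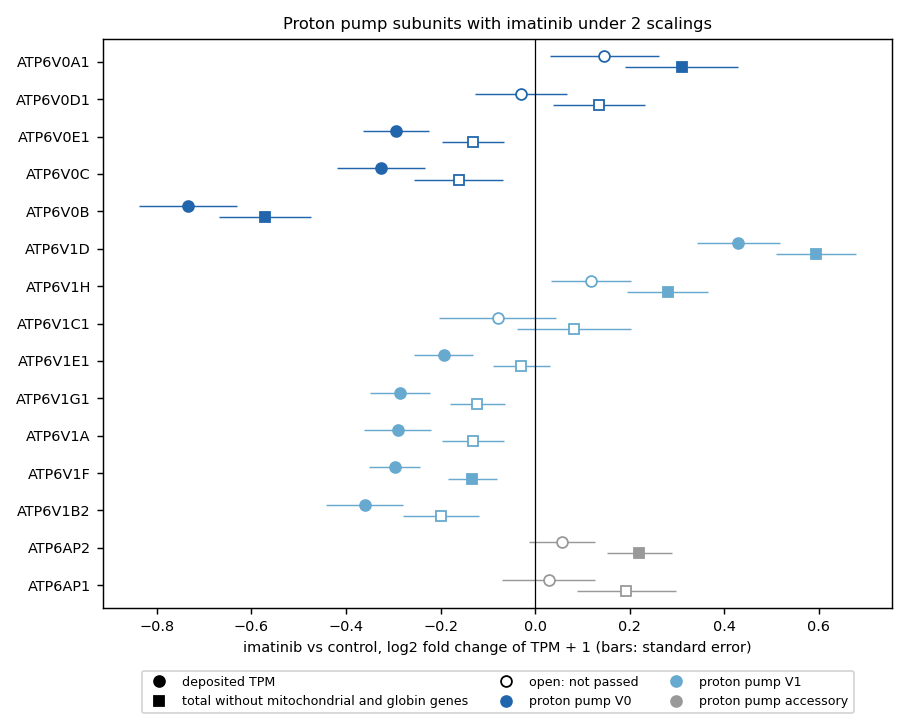
Log2 fold change of TPM + 1 (horizontal axis) with imatinib against control for the 15 pump genes, with the standard error, on the deposited TPM (circles) and on TPM rescaled to a total without mitochondrial and globin genes (squares). Filled symbols passed: 8 were lower and 1 higher on the deposited values, and 2 lower and 4 higher on the rescaled ones. The median of all tested genes was 0.02 on the deposited values and 0.16 on the rescaled ones.

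TFEB and TFE3 fell with imatinib and MITF did not pass. TFE3 (ENSG00000068323, chromosome X from 49028726 to 49043410) stood at 23.2, 18.5 and 22.9 TPM with imatinib + MLN4924, 11.3, 13.9 and 11.5 with imatinib, 25.9, 23.6 and 23.1 with MLN4924 and 19.7, 16.1 and 18.6 in control. The imatinib libraries were the lowest and did not overlap with any other group, with a log2 fold change equal to -0.53 (SE 0.11, adjusted p = 0.00219) against control. TFEB (ENSG00000112561, chromosome 6 from 41683978 to 41736259), the factor best known for lysosomal genes, had 5.92, 4.54 and 7.90 TPM with imatinib + MLN4924, 3.47, 2.39 and 3.59 with imatinib, 5.51, 5.70 and 4.36 with MLN4924 and 5.17, 5.07 and 4.45 in control. Its imatinib libraries too were the lowest, and the log2 fold change was -0.52 (SE 0.18, adjusted p = 0.0301), which did not pass without imatinib replicate 2 or control replicate 1 or 2 (adjusted p = 0.076 to 0.124), nor on the rescaled values at -0.41 (adjusted p = 0.0817). MITF had 6.67, 6.02 and 5.24 TPM with imatinib + MLN4924, 5.21, 4.52 and 5.20 with imatinib, 4.68, 4.77 and 4.53 with MLN4924 and 4.28, 3.84 and 4.71 in control. Its log2 fold change with imatinib was 0.18 (95% interval -0.06 to 0.43), and on the rescaled values it passed as higher at 0.33 (adjusted p = 0.0327). The protein level of these factors and their place in the cell were not measured.

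The members whose promoter window holds an E-box, the sequence that these factors bind, both rose and fell. Of these 11, 4 were raised by imatinib (CTSA, CTSD, GAA and NEU1), 2 were lowered (ATP6V0B and ATP6V1G1) and 5 did not pass. The median log2 fold change of the 11 was -0.02. Of all tested genes 26.3% rose and 27.5% fell, with a median of 0.02. Among the 24 tested members whose window holds no E-box, 8 rose, 10 fell and 6 did not pass, with a median of 0.03. The 13 members without a window, CTSB, ASAH1 and PSAP among them, are in neither count. LAMP1, whose stretch holds 5 E-boxes, had a log2 fold change of -0.10 (95% interval -0.27 to 0.07) with imatinib, and 0.06 (adjusted p = 0.505) rescaled. On the rescaled values CD63, with 0.145 (adjusted p = 0.0354), and CLN3, with 0.28 (adjusted p = 0.0146), passed as higher beside the 4 named above. ATP6V0B remained lower there, and ATP6V1G1 did not pass, at -0.12 (adjusted p = 0.0945). Of all genes 35.2% rose and 20.4% fell on these values.

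The counts of the other genes of the pathway with imatinib stand beside 26.3% of all tested genes that rose and 27.5% that fell. Of 36 further hydrolases and activators 19 rose and 7 fell, with a median log2 fold change of 0.36. ACP5, the tartrate-resistant acid phosphatase, had 2.13 (adjusted p = 6.6e-06), CTSF, a cysteine protease, 1.75 (adjusted p = 3.76e-06), NAAA, an acid amidase, -1.22 (adjusted p = 0.000291) and ARSB, an arylsulfatase, -0.99 (adjusted p = 3.94e-05). Of 27 further membrane proteins 8 rose and 7 fell, among them the potassium and proton channel TMEM175 with 1.12 (adjusted p = 0.000474), the amino acid exporter SLC36A1 with 1.08 (adjusted p = 1.07e-05), LAPTM4B with -1.57 (adjusted p = 1.13e-05) and CD68 with -0.81 (adjusted p = 0.00954). Of 13 further pump subunits and assembly factors 6 rose and 3 fell, among them ATP6V1E2 with 0.61 (adjusted p = 0.0239), ROGDI with 0.59 (adjusted p = 0.0162), the assembly factor VMA21 with -0.66 (adjusted p = 0.000361) and CCDC115 with -0.32 (adjusted p = 0.00215). Of 10 genes that tag, activate or sort hydrolases on their way to the lysosome 3 rose and 3 fell. They included GNPTG, of the mannose 6-phosphate tag, with 0.50 (adjusted p = 0.000268), SUMF1, which activates sulfatases, with 0.48 (adjusted p = 0.00629), NAGPA with -0.49 (adjusted p = 0.0119) and the sorting receptor SORT1 with -0.32 (adjusted p = 0.00659). Of 24 genes that control TFEB at the lysosome 9 rose and 6 fell, among them the GATOR1 subunits NPRL3 with 1.33 (adjusted p = 1.11e-05) and NPRL2 with -0.44 (adjusted p = 0.005) and the GTPases RRAGD with 0.90 (adjusted p = 3.25e-05) and RHEB with -0.45 (adjusted p = 0.00129). The lists of membrane proteins, sorting genes and TFEB control genes lay nearer to the shares of all genes than the hydrolases did. After rescaling, 35.2% of all tested genes were higher and 20.4% lower. The hydrolases then had 21 higher and 5 lower, the membrane proteins 11 and 5 and the pump and assembly genes 6 and 1. The sorting genes had 4 and 0 and the TFEB control genes 10 and 3.

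With MLN4924 added to imatinib, more hydrolases fell than rose relative to imatinib alone, and the pump had more rises than falls. With the rescaled values 2 pump genes rose and 5 fell, with a median still above that of all genes. Against imatinib alone 12 of 21 hydrolases and both soluble non-enzymes fell and 4 hydrolases rose, while of 15 pump genes 6 rose and 3 fell and TFEB and TFE3 rose. In all 13 of 48 members rose and 18 fell, against a background of 22.6% and 20.5% of all tested genes. The median log2 fold change was -0.30 for the hydrolases, 0.08 for the membrane proteins and 0.07 for the pump, beside 0.00 for all tested genes. On the rescaled values 7 members rose and 22 fell, where 15.5% of all genes rose and 27.0% fell. The median was then -0.425 for the hydrolases, -0.035 for the membrane proteins and -0.051 for the pump, beside -0.105 for all tested genes. Without imatinib replicate 1, or without imatinib replicate 2, 8 rose in place of 13. This comparison and that of imatinib with control share the imatinib libraries, so a chance deviation in them moves both, in opposite directions.

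The largest change was the rise of GLA, to 187 ± 21.9 TPM with imatinib + MLN4924, against 40.9 ± 6.35 TPM with imatinib (SD, n = 3 each), and the log2 fold change came to 2.17 (SE 0.10, adjusted p = 3.24e-07) and 4.58 times the mean TPM. IDS had 0.95 (adjusted p = 0.000543), CTSC 0.63 (adjusted p = 0.00269) and PPT1 0.29 (adjusted p = 0.0121), which did not pass without imatinib replicate 2 (adjusted p = 0.056). These were the 4 hydrolases that rose, and on the rescaled values PPT1 did not pass, at 0.16 (adjusted p = 0.0803). CTSH fell, with -0.29 (adjusted p = 0.0033). NAGLU (ENSG00000108784, chromosome 17 from 42536241 to 42544449) fell most and stood at 6.40, 5.69 and 6.05 TPM with imatinib + MLN4924, 14.4, 14.3 and 13.1 with imatinib, 6.38, 5.20 and 4.92 with MLN4924 and 8.46, 8.65 and 8.06 in control. Imatinib alone was the highest group for NAGLU, both groups with MLN4924 lay below control, and the log2 fold change against imatinib was -1.08 (SE 0.10, adjusted p = 2.37e-05). NEU1 (ENSG00000204386, chromosome 6 from 31857659 to 31862905) had 47.9, 43.2 and 47.4 TPM with imatinib + MLN4924, 98.7, 95.3 and 78.3 with imatinib, 49.8, 36.5 and 39.8 with MLN4924 and 60.0, 47.6 and 46.8 in control. The imatinib libraries lay above all others, and the log2 fold change was -0.95 (SE 0.13, adjusted p = 0.00025).

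The other hydrolases that fell had log2 fold changes from -0.95 for MANBA to -0.30 for CTSD, with GLB1 at -0.74, GAA at -0.68, TPP1 at -0.63, HEXA and CTSZ at -0.56 each and GUSB at -0.33. CTSB, with -0.33 (adjusted p = 0.0359), passed although imatinib replicate 3 overlapped with both drugs together, and it did not pass without imatinib + MLN4924 replicate 1, 2 or 3 or imatinib replicate 1 or 2 (adjusted p = 0.0578 to 0.14). CTSL was -0.08 (95% interval -0.27 to 0.10) and did not pass, nor did ASAH1, MAN2B1, CTSA or SGSH. On the rescaled values ASAH1 passed as lower, at -0.38 (adjusted p = 0.0123), and the other 4 did not pass. PSAP had -0.63 (adjusted p = 0.000126) and NPC2 -0.67 (adjusted p = 0.0011).

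Among the membrane proteins NPC1 rose and MCOLN1 fell. NPC1 (ENSG00000141458, chromosome 18 from 23506184 to 23586506) had 32.8, 25.9 and 27.2 TPM with imatinib + MLN4924, 21.8, 22.6 and 22.9 with imatinib, 29.7, 31.9 and 32.7 with MLN4924 and 21.3, 22.9 and 21.4 in control. Both groups with MLN4924 lay above both groups without it, and the log2 fold change of imatinib + MLN4924 against imatinib was 0.33 (SE 0.09, adjusted p = 0.0101), or 0.21 (adjusted p = 0.0725) rescaled. MCOLN1 had 9.09, 10.5 and 11.3 TPM with imatinib + MLN4924, 13.2, 15.04 and 11.9 with imatinib, 14.8, 14.1 and 12.6 with MLN4924 and 15.6, 13.0 and 13.1 in control. The libraries with both drugs lay below all others, and the log2 fold change was -0.34 (adjusted p = 0.0314), which did not pass without imatinib + MLN4924 replicate 1 or 2 or imatinib replicate 1 or 2 (adjusted p = 0.0569 to 0.127).

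Of the pump, ATP6V0B rose by 0.54 (SE 0.10, adjusted p = 0.00188) on the log2 scale and ATP6AP1 fell. ATP6AP1 (ENSG00000071553, chromosome X from 154428633 to 154436516), an accessory protein of the V0 part, stood at 74.9, 75.1 and 77.4 TPM with imatinib + MLN4924, 110.5, 122 and 97.6 with imatinib, 84.4, 72.7 and 64.1 with MLN4924 and 108, 106 and 109 in control. Both groups with MLN4924 lay below both groups without it, with a log2 fold change equal to -0.53 (SE 0.10, adjusted p = 0.00152). ATP6V1C1, which helps to hold the V1 part on V0, had 59.0, 64.1 and 74.3 TPM with imatinib + MLN4924, 43.5, 46.3 and 53.9 with imatinib, 64.8, 82.4 and 70.5 with MLN4924 and 48.8, 45.5 and 57.8 in control. Both groups with MLN4924 lay above both groups without it, and the log2 fold change was 0.45 (adjusted p = 0.013), which did not pass without imatinib + MLN4924 replicate 3 or imatinib replicate 1 (adjusted p = 0.0546). ATP6V0E1, ATP6V1E1, ATP6V1A and ATP6V1G1 rose by 0.25 to 0.18, and none of these 4 passed on the rescaled values. None of the 4 passed without imatinib replicate 1, nor without imatinib replicate 2, and the adjusted p was then 0.0531 to 0.132. ATP6V1A, ATP6V1E1 and ATP6V1G1 were also lost without imatinib + MLN4924 replicate 3 (adjusted p = 0.0589 to 0.125), ATP6V1A and ATP6V1G1 without replicate 2 of that group, ATP6V1A without its replicate 1 and ATP6V1G1 without control replicate 2. ATP6V0D1, with -0.28 (adjusted p = 0.0342), and ATP6V1F, with -0.24 (adjusted p = 0.00428), fell, the first of them not without imatinib + MLN4924 replicate 1 or 2 or imatinib replicate 1 or 2 (adjusted p = 0.0834 to 0.128). On the rescaled values 2 pump genes rose (ATP6V0B and ATP6V1C1) and 5 fell, beside 15.5% and 27.0% of all genes.

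TFE3 rose by 0.77 (SE 0.11, adjusted p = 0.000409) and TFEB by 0.76 (SE 0.18, adjusted p = 0.00578) on the log2 scale against imatinib. In both genes the 3 libraries with both drugs lay above the 3 imatinib libraries. MITF had 0.22 (95% interval -0.02 to 0.46). Of the further genes of the pathway, 16 of 36 hydrolases and activators fell and HYAL3, a hyaluronidase family member, rose, with 1.05 (adjusted p = 0.000604). Those that fell included ACP5 at -1.76 (adjusted p = 4.35e-05) and the legumain gene LGMN at -1.12 (adjusted p = 0.00588). Of 27 membrane proteins 3 rose and 8 fell, of 13 pump and assembly genes 2 rose and 5 fell, of 10 sorting genes none rose and 3 fell, and of 24 TFEB control genes 2 rose and 8 fell, beside 22.6% of all tested genes that rose and 20.5% that fell. After rescaling, 15.5% of all tested genes were higher and 27.0% lower. Of the hydrolases 1 was then higher and 23 were lower, beside 3 and 10 membrane proteins and 1 and 6 pump and assembly genes. The sorting genes had 0 and 6 and the TFEB control genes 1 and 11.

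**Figure D4:**
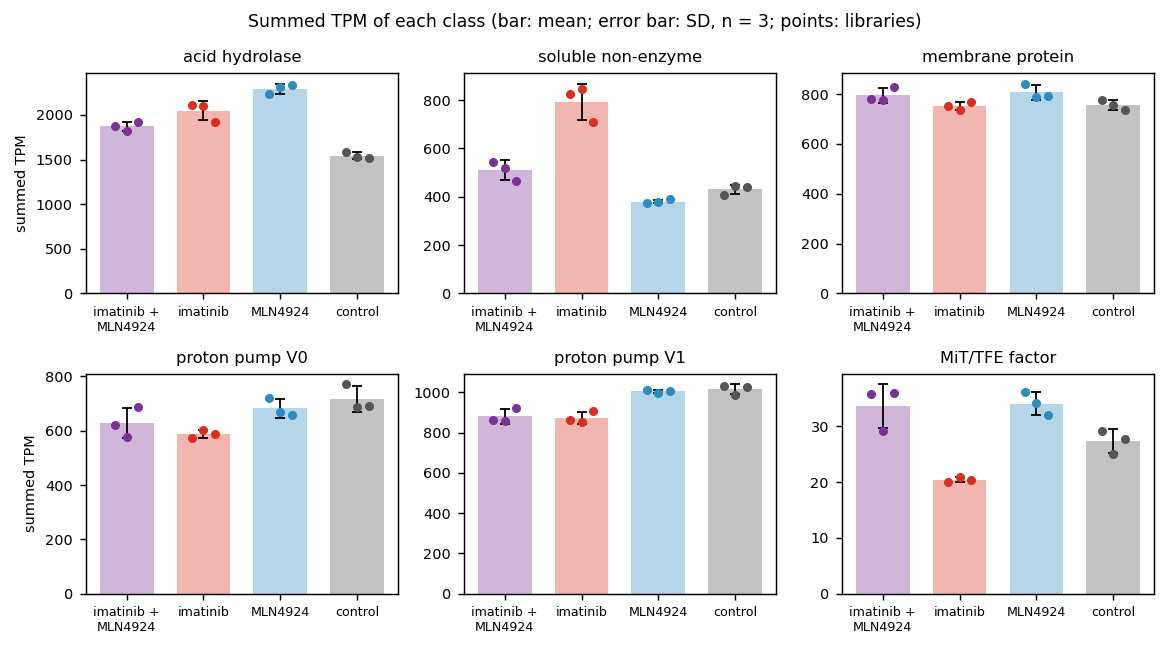
Summed TPM (vertical axis, from 0) of the members of each class, the accessory proteins of the pump left out, in each library (points), with the mean of 3 libraries (bars) and its SD, for imatinib + MLN4924, imatinib, MLN4924 and control. The 2 soluble non-enzymes sum to 709 TPM or more with imatinib and to 546 TPM or less in the other groups.

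MLN4924 alone changed fewer members, with a few large changes. Against control 9 of 48 rose and 6 fell, against a background of 7.36% and 7.11% of all tested genes. Of 21 hydrolases 4 rose (CTSL, GLA, IDS and CTSB) and 4 fell (GAA, NAGLU, CTSZ and CTSH), of the membrane proteins NPC1 and LAMP2 rose, of the pump ATP6V1D and ATP6V1C1 rose and ATP6AP1 and ATP6V1F fell, and TFE3 rose. The medians were -0.07 for the hydrolases, 0.09 for the membrane proteins and 0.02 for the pump, beside 0.00 for all tested genes. CTSL rose most, to 712 ± 66.0 TPM with MLN4924, against 132 ± 3.40 TPM in control (SD, n = 3 each), and the log2 fold change came to 2.42 (SE 0.09, adjusted p = 5.47e-08) and 5.38 times the mean. GLA followed with 1.53 (SE 0.10, adjusted p = 5.73e-06), and IDS with 1.28 (SE 0.15, adjusted p = 0.000309). Summed TPM of the hydrolases was 1871 ± 49.6 TPM with imatinib + MLN4924, 2047 ± 106 with imatinib, 2295 ± 55.2 with MLN4924 and 1545 ± 34.3 in control (SD, n = 3 each). The sum with MLN4924 alone was the highest, and CTSL was 712 TPM of it.

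The other changes with MLN4924 alone were smaller. CTSB had 0.73 (adjusted p = 0.00158), ATP6V1D 0.59 (adjusted p = 0.00132), NPC1 0.50 (adjusted p = 0.00316) and ATP6AP1 -0.55 (adjusted p = 0.00381). ATP6V1C1, at 0.51, did not pass without MLN4924 replicate 2 or control replicate 1 or 2 (adjusted p = 0.0618 to 0.0798). TFE3, at 0.40, did not pass without MLN4924 replicate 1, 2 or 3 or control replicate 2 or 3 (adjusted p = 0.0686 to 0.138), and LAMP2, at 0.30, not without MLN4924 replicate 2 or 3 or control replicate 1 or 2 (adjusted p = 0.0584 to 0.0905). GAA, at -0.57, did not pass without MLN4924 replicate 2 or 3 or control replicate 2 (adjusted p = 0.0707 to 0.0982). Of those that fell, NAGLU had -0.54 (adjusted p = 0.00481), CTSZ -0.39 (adjusted p = 0.0073), ATP6V1F -0.33 (adjusted p = 0.00228) and CTSH -0.29 (adjusted p = 0.00964). TFEB had 0.07 (95% interval -0.33 to 0.46), ATP6V0B 0.06 (95% interval -0.17 to 0.29), TPP1 0.05 (95% interval -0.12 to 0.22) and PSAP -0.17 (95% interval -0.34 to 0.00), none of them past the threshold after adjustment. Of the further genes, no hydrolase rose and 6 of 36 fell, beside 7.36% of all tested genes that rose and 7.11% that fell, among them LGMN with -1.19 (adjusted p = 0.0119) and ACP5 with -1.08 (adjusted p = 0.00247).

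Cells with both drugs still differed from control in 22 members. Of 48, 14 rose and 8 fell, against a background of 12.2% and 13.9% of all tested genes. The largest rises were GLA with 1.41 (adjusted p = 6.12e-06), CTSL with 1.06 (adjusted p = 1.25e-05), CTSB with 0.86 (adjusted p = 0.000365), ASAH1 with 0.80 (adjusted p = 0.000238), ATP6V1D with 0.65 (adjusted p = 0.000418) and NPC2 with 0.57 (adjusted p = 0.00508). CTSH with -1.26 (adjusted p = 3.81e-07) and CTSC with -0.80 (adjusted p = 0.00127) were the largest falls. MITF passed here as higher with 0.40 (adjusted p = 0.0216), but not without imatinib + MLN4924 replicate 1 or 2 or control replicate 1 or 2 (adjusted p = 0.0516 to 0.0888). TFEB had 0.25 (95% interval -0.15 to 0.64) and TFE3 0.23 (95% interval -0.02 to 0.48). Without control replicate 2, 9 members rose in place of 14.

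Against MLN4924 alone, the cells with both drugs differed in 13 members, 6 higher and 7 lower, beside 7.73% and 8.48% of all tested genes. CTSL fell to 276 ± 20.9 TPM with imatinib + MLN4924, against 712 ± 66.0 TPM with MLN4924 (SD, n = 3 each), and the log2 fold change came to -1.36 (SE 0.09, adjusted p = 1.59e-05). CTSC, with -0.98 (adjusted p = 0.00117), CTSH, with -0.98 (adjusted p = 1.59e-05), IDS, with -0.84 (adjusted p = 0.00488), and ATP6V1B2, with -0.64 (adjusted p = 0.00105), fell too. NPC2 rose by 0.78 (adjusted p = 0.00225), ASAH1 by 0.75 (adjusted p = 0.00117), GLB1 by 0.43 (adjusted p = 0.00755) and TPP1 by 0.40 (adjusted p = 0.00755). PSAP had 0.34 (adjusted p = 0.0138) and did not pass without imatinib + MLN4924 replicate 1 or 2 (adjusted p = 0.0528 to 0.0649). Without replicate 3 of imatinib and of imatinib + MLN4924 together, 13 members fell in place of 7.

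The interaction asks whether the effect of imatinib differed with and without MLN4924, and it is the first log2 fold change minus the second. Of 48 members 2 were higher and 9 lower, beside 9.06% and 7.35% of all tested genes. CTSL had the largest difference, -2.50 (SE 0.12, adjusted p = 3.56e-06), since imatinib raised it without MLN4924, by 1.14, and lowered it with MLN4924, by 1.36 on the log2 scale. CTSB followed with -1.06 (SE 0.16, adjusted p = 0.00394), and its effect of imatinib was 0.12 with MLN4924 and 1.18 without. TPP1 had -0.68 (SE 0.11, adjusted p = 0.00516), with effects of 0.40 and 1.08. GLB1 had -0.51 (adjusted p = 0.0175) and GLA 0.64 (adjusted p = 0.0167), the effect on GLA being -0.11 with MLN4924 and -0.76 without. These 5 held without any 1 library. CTSH, whose effect was -0.98 with MLN4924 and -0.98 without, had an interaction of 0.00 (95% interval -0.19 to 0.19).

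Each of the other 6 differences was lost when some single library was left out. NEU1, with -0.67 (adjusted p = 0.0342), did not pass without imatinib + MLN4924 replicate 1, 2 or 3, imatinib replicate 1 or 2, MLN4924 replicate 1 or 3 or control replicate 2 or 3 (adjusted p = 0.0516 to 0.0855). MAN2B1, with -0.56 (adjusted p = 0.045), did not pass without imatinib + MLN4924 replicate 1, 2 or 3, imatinib replicate 1 or 2, MLN4924 replicate 2 or 3 or control replicate 1 or 2 (adjusted p = 0.0633 to 0.111). NAGLU, with -0.55 (adjusted p = 0.0265), did not pass without imatinib + MLN4924 replicate 2, imatinib replicate 1 or 2, MLN4924 replicate 1 or control replicate 2 or 3 (adjusted p = 0.0502 to 0.0694), and PSAP, with -0.45 (adjusted p = 0.0197), not without imatinib replicate 1 or 2 (adjusted p = 0.0536 to 0.0538). HEXA, with -0.41 (adjusted p = 0.0389), did not pass without imatinib + MLN4924 replicate 3, imatinib replicate 1 or 2, MLN4924 replicate 1 or 3 or control replicate 1, 2 or 3 (adjusted p = 0.0675 to 0.0963). ATP6V0B, with 0.47 (adjusted p = 0.0476), did not pass without imatinib + MLN4924 replicate 1, 2 or 3, imatinib replicate 1 or 2, MLN4924 replicate 1, 2 or 3 or control replicate 1 or 2 (adjusted p = 0.0648 to 0.113), nor on the rescaled values at 0.35 (adjusted p = 0.0933). Of the MiT/TFE factors TFEB had 0.70 (95% interval 0.14 to 1.26), TFE3 0.37 (95% interval 0.01 to 0.72) and MITF 0.12 (95% interval -0.23 to 0.46), none past the threshold after adjustment over all genes. Without imatinib replicate 1, or without imatinib replicate 2, 4 members were lower in place of 9, and without control replicate 2 there were 5. Without imatinib replicate 3, 5 were higher in place of 2. On the rescaled values 1 was higher and 14 were lower, where 5.86% of all genes were higher and 11.6% lower.

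**Figure D5:**
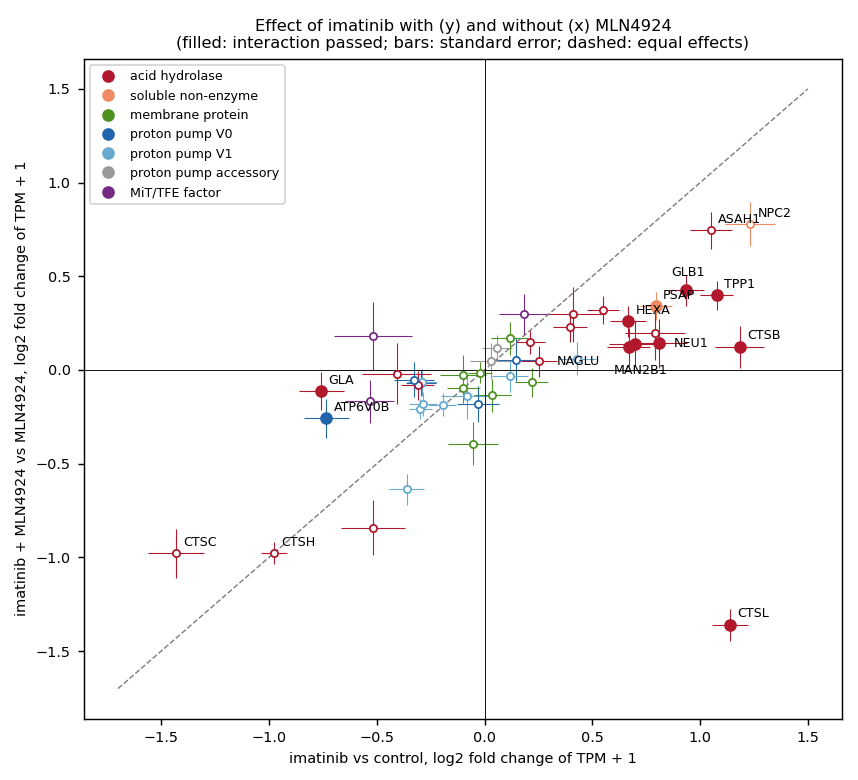
Log2 fold change of TPM + 1 for imatinib + MLN4924 against MLN4924 (vertical axis) and for imatinib against control (horizontal axis), 1 point per tested member with standard errors, and the dashed line where both are equal. Filled points passed the test of the interaction, and CTSL lies lowest at 1.14 on the horizontal and -1.36 on the vertical axis.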

How the data were processed

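RNA of 12 libraries of K562 cells, 3 in each of 4 groups, was analysed from 1 table. Per the study's methods, fastp trimmed the reads, HISAT2 placed them on hg38 and StringTie gave expression values, and what the authors deposited is TPM per gene, a share of the library total. The submitters' processing notes also name featureCounts and GRCh38. The table holds no read counts, so tests made for counts were not used and depth is unknown.

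The members and gene lists were chosen with earlier results of these data known. Values were taken as log2(TPM + 1), so fold changes of low genes are understated. A gene was tested if 3 or more libraries reached 1 TPM, which 15478 Ensembl genes did, and the 691 loci assembled without an Ensembl gene were not used. The fit was limma 3.58.1 with trend in R 4.3.3, with the 4 group means as coefficients, two-sided tests, Benjamini-Hochberg adjustment over all genes tested and a threshold of 0.05. Summaries used Python 3.11.15, numpy 2.4.6, pandas 2.3.3 and matplotlib 3.10.9, and the fit was tested on simulated data. Gene positions are those of GENCODE release 44 on GRCh38, and promoters those of RefSeq (GRCh38.p14).

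Values per library are given for the MiT/TFE factors and the soluble non-enzymes, and in hydrolases, membrane proteins and pump for the 4 largest changes past the threshold with imatinib, the 3 largest in the other main comparisons and members that moved against their class. Further members named in groups or counts, and the members printed beyond this rule, were picked after their values were seen. Alternatives were pseudocounts of 0.1 and 5, no filter or a mean of at least 5 TPM, median-of-ratios scaling, a total without mitochondrial and globin genes, no trend, only the libraries compared, a replicate block and leaving out each library. Leaving out replicate 3 of both imatinib groups was added after seeing the data.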

Additional observations from a re-analysis of the deposited data

Results flagged for a closer look

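The effect of imatinib differed with and without MLN4924 in 11 members, by the interaction test of limma with Benjamini-Hochberg adjustment over all genes. The difference, on the log2 scale, was -2.50 for CTSL, -1.06 for CTSB, -0.68 for TPP1, -0.67 for NEU1, -0.56 for MAN2B1, -0.55 for NAGLU, -0.51 for GLB1, -0.45 for PSAP and -0.41 for HEXA. It was 0.64 for GLA and 0.47 for ATP6V0B. Of these 11, CTSL, CTSB, TPP1, GLB1 and GLA held without any 1 library. The other 6 were lost when some single library was left out, and ATP6V0B did not pass on the rescaled values either. CTSL was the 1 member of the 11 whose effect of imatinib passed the threshold in both settings with opposite signs.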

How the results depend on the processing

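No member that passed changed sign under any alternative run. For imatinib against control, the members lower became 7 with the total without mitochondrial and globin genes, in place of 15. For imatinib + MLN4924 against imatinib, the members higher became 7 with that total, in place of 13, and 8 to 13 when 1 library was left out. Against control, the members higher with both drugs became 9 in place of 14 with only the libraries compared, and 9 to 15 when 1 library was left out. Against MLN4924, the members lower became 13 in place of 7 without replicate 3 of imatinib and of imatinib + MLN4924. For the interaction, the members higher became 1 in place of 2 without the filter, without the trend and with the total without mitochondrial and globin genes, 5 without both replicates 3, and 1 to 5 when 1 library was left out. The members lower became 14 in place of 9 with that total, and 4 to 11 when 1 library was left out. The cause of these shifts was not tested. All other counts of members stayed within 1.5 times. With 1 library left out, 28 of 34, 22 of 31, 11 of 15, 15 of 22, 9 of 13 and 5 of 11 calls held in all 12 fits, in the order of imatinib against control, imatinib + MLN4924 against imatinib, MLN4924 against control, imatinib + MLN4924 against control, the same against MLN4924, and the interaction.

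With the replicate number as a block, 19 members rose and 16 fell with imatinib, 13 and 18 with imatinib + MLN4924 against imatinib, and the interaction had 2 higher and 10 lower. Of 18 pairs of same-numbered libraries from different groups, 1 correlated over 0.1 in its deviations from the group means, replicate 3 of imatinib + MLN4924 with replicate 3 of imatinib (0.185). The lowest correlation was -0.06 and the median 0.01, so the numbers were not taken to pair the libraries.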
